A study of Homo sapiens with 6 samples.

Results

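GREB1L and 8 genes that bind, sense, break down or respond to retinoids were followed in H1 human embryonic stem cells grown on laminin coatings. The 9 genes were GREB1L, its paralogue GREB1, the retinoic acid binding proteins CRABP1 and CRABP2, the retinoic acid hydroxylase CYP26A1, the receptors RARA, RARB and RARG, and the retinaldehyde reductase DHRS3. All 9 symbols matched a gene among the 60499 listed in the deposited tables, and 8 passed the filter on low counts that 17608 genes passed. The exception was RARB. GREB1L was chosen by its measured difference between the coatings in these libraries, and the other members were selected on their known roles with these results in view. The values of GREB1L are therefore a description, and the question asked was whether the other 8 genes moved with it.

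H1 is an established human embryonic stem cell line and was the only line used, so the values describe 1 line. The cells were cultured for 4 days in NutriStem medium, in triplicate wells coated with laminin-521 alone (LN-521) or with laminin-521 and laminin-221 together (LN-521+LN-221). Both groups therefore share the line, the medium and laminin-521, and they differ in the added laminin-221. Total RNA was sequenced from 3 wells per coating. The amounts of laminin and the retinoid content of the medium are not given in the sources used here.

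Retinoic acid is made from vitamin A by the oxidation of retinol to retinaldehyde and of retinaldehyde to retinoic acid. It enters the nucleus with the help of CRABP2 and binds retinoic acid receptors (RARs), which sit on DNA as dimers with retinoid X receptors (RXRs) and exchange corepressors for coactivators when the ligand binds. Genes that remove the signal, among them CYP26A1 and DHRS3, are themselves induced by it, which makes them common readouts of retinoid signalling in pluripotent and early neural cells. GREB1L encodes a protein described as a coactivator of retinoic acid receptors, and loss of its function in people causes failure of kidney development. GREB1 is best known as a gene induced by estrogen in breast cancer cells.

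The sequences through which RAR and RXR dimers bind are direct repeats of a hexamer. They are shown first, and were found in 2 of the 8 members searched. The hexamer AGGTCA and the variants AGTTCA or GGGTCA or GGTTCA were searched on both strands as pairs spaced by 1, 2 or 5 bases (DR1, DR2 and DR5), in windows from 250 bases before to 50 bases after each RefSeq transcript start (GRCh38.p14). Windows were found for 8 of the 9 members, 16 windows in all. Direct repeats occurred in 2 of these 16 windows, 1 of CYP26A1 and 1 of RARB, and in 0.259% of all 35116 windows. Both were DR5, which 0.0883% of all windows held. In CYP26A1 the repeat lay 90 to 74 bases before RefSeq start 2 of 2 by position, on the strand opposite to the gene (chr10:93073797-93073825 with 6 bases on each side, GRCh38). In RARB it lay 53 to 37 bases before RefSeq start 3 of 4, on the strand of the gene (chr3:25428204-25428232). Both sites lie inside the genes as annotated in GENCODE, which begin at 93073475 (CYP26A1) and 25174332 (RARB). Of the 250 bases before this CYP26A1 start, 195 are annotated exon. In the following lines the capitals mark the hexamers and each site reads 5′ to 3′ on its own strand.
CYP26A1 site: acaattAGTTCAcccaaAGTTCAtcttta
RARB site: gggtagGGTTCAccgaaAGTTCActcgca

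The 250 bases before the start of GREB1L (chr18:21241982-21242231, plus strand) are shown because GREB1L is the gene the comparison turns on. Those of CYP26C1 (chr10:93060548-93060797, plus strand), a neighbour of CYP26A1, are shown because its level moved with that of CYP26A1. Capitals again mark single hexamers on either strand. None was found in the GREB1L stretch and 1 in the CYP26C1 stretch. Over the full windows of 300 bases GREB1L again had none, while CYP26C1 and 38.6% of all windows had at least 1. GREB1L had a GC content of 78.8% over these bases and CYP26C1 of 66.4%, where the median of all windows was 58.0%.
GREB1L: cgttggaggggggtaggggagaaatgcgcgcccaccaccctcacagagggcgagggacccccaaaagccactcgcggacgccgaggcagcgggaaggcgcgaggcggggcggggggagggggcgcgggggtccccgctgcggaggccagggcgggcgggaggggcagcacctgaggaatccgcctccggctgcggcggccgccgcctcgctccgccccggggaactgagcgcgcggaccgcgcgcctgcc
CYP26C1: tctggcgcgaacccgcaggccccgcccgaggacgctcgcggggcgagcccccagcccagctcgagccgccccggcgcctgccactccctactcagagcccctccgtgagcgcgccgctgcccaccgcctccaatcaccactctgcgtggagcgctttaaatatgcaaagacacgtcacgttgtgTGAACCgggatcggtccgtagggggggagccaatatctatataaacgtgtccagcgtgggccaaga
These matches describe letters in a short window and were not tested for binding.

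Total counts per library ranged from 20606450 to 26836686, and all 6 libraries came from 1 sequencing batch. Of 17608 genes tested, 446 (2.53%) had an adjusted p-value under 0.05 between the coatings (edgeR quasi-likelihood test, Benjamini-Hochberg adjustment over all genes tested), 246 of them higher on LN-521+LN-221 (1.4%) and 200 lower (1.14%). Expression per library is given as CPM, counts scaled to a common library size and computed from the deposited counts, and means of the 3 wells carry their SD. Log2 fold changes are LN-521+LN-221 over LN-521 with their standard error (SE). The labels call the wells biological replicates of 1 line, so the p-values measure the spread between wells. Bulk RNA cannot separate more RNA per cell from more cells that express a gene.

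The stem cell markers POU5F1, NANOG, SOX2, LIN28A and DNMT3B were all expressed, with a summed level of 6443 to 6642 CPM on LN-521 and 6682 to 6860 CPM on LN-521+LN-221. Of these 5, NANOG fell by 0.73 on the log2 scale (edgeR adjusted p = 1.65e-04) and POU5F1 by 0.36 (edgeR adjusted p = 0.00366), LIN28A rose by 0.23 (edgeR adjusted p = 0.00737), and SOX2 and DNMT3B did not pass. Of the 7 neural ectoderm markers listed, 4 were tested and 2 rose, OTX2 and ZIC1. Their summed level was 486 to 534 CPM on LN-521 and 560 to 613 CPM on LN-521+LN-221, and 4 of the 7 stayed under 1 CPM in every library. The 5 definitive endoderm markers summed to 1.16 to 2.71 CPM on LN-521 and 1.60 to 1.93 CPM on LN-521+LN-221, with 4 under 1 CPM everywhere. The 6 mesoderm markers summed to 9.29 to 11.2 CPM and 8.81 to 9.21 CPM, and the 6 trophectoderm or amnion markers to 22.7 to 27.3 CPM and 22.5 to 25.9 CPM. Of the 6 fibroblast markers THY1 fell, LUM had no count in any library, and the sum was 425 to 488 CPM on LN-521 and 422 to 429 CPM on LN-521+LN-221. OTX2, at 95.2 ± 7.47 CPM on LN-521 and 156.8 ± 6.51 CPM with the mixed coating (SD, n = 3), made up most of the gap between the neural sums, while NES and PAX6 did not pass. With limma on log2(TPM + 1) NANOG, POU5F1, LIN28A and THY1 did not pass, although 3 of the 5 stem cell markers had an unadjusted p-value under 0.05, while OTX2 passed with limma and DESeq2, and neither gave ZIC1 an adjusted p-value. OTX2, ZIC1 and LIN28A were higher and NANOG, POU5F1 and THY1 lower on the coating where GREB1L was higher. The part of these genes in the results was not tested. ZIC1 had 9, 9 and 11 counts on LN-521 and passed the filter on low counts only through its LN-521+LN-221 wells.

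GREB1L (ENSG00000141449, chr18:21242242-21525417, plus strand) was 15.1, 15.3 and 9.35 CPM in LN-521 wells 1, 2 and 3. In LN-521+LN-221 wells 1, 2 and 3 it was 53.6, 52.0 and 62.7 CPM. The coatings did not overlap, and the lowest well on the mixed coating was more than 3 times the highest on LN-521. The means were 13.3 ± 3.38 CPM and 56.1 ± 5.76 CPM (SD, n = 3 each), which gave a log2 fold change of 2.08 ± 0.18 (SE) or 4.23-fold, ranked 10 from the top among all genes tested. This difference chose the gene and is given without a test. LN-521 well 3 stood below wells 1 and 2 of its coating, and the SD of log2 CPM on LN-521 (0.40) was above that of 91.3% of genes. On LN-521+LN-221 the SD was 0.14, above that of 66.9% of genes.

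The paralogue GREB1 (ENSG00000196208, chr2:11482341-11642788, plus strand) did not follow. It was 29.2, 30.9 and 31.1 CPM on LN-521 and 31.8, 30.9 and 33.0 CPM on LN-521+LN-221. These ranges overlap, and the log2 fold change was 0.07 ± 0.07 (SE, with edgeR adjusted p = 0.732), with a 95% interval from -0.07 to 0.21. Length-corrected levels (TPM) place GREB1L below GREB1 on LN-521, with GREB1L to GREB1 ratios of 0.403, 0.461 and 0.405 in wells 1 to 3. On LN-521+LN-221 the ratios were 1.85, 1.39 and 1.49, so the order of the paralogues was reversed in every well. GREB1L and GREB1 had whole counts in all 6 libraries, so their deposited counts show no fractional assignment of reads.

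The genes around GREB1L were compared to see whether its stretch of chromosome 18 differed. The nearest gene after it, ESCO1, a cohesin acetyltransferase on the opposite strand, lies 3864 bases away and had a log2 fold change of 0.14 ± 0.07 (SE, with edgeR adjusted p = 0.384). The nearest protein-coding gene before it, the kinase gene ROCK1, lies 130391 bases away and had a log2 fold change of 0.05 ± 0.06 (SE, with edgeR adjusted p = 0.805). The divergent transcript GREB1L-DT, 871 bases before the start, had at most 2 counts in any library. No annotated exon of another gene overlaps those of GREB1L.

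Among the other 8 members, 7 were tested and 1 rose, CYP26A1, and none fell, where 2.53% of all genes tested passed the threshold. Of the 7 tested, the groups did not overlap for CYP26A1, CRABP2 and DHRS3, all higher on LN-521+LN-221, and the CPM of the untested RARB did not overlap either. Among all genes tested 19.9% did not overlap, 10.2% being higher and 9.68% lower. The median log2 fold change of the 7 was 0.07, and that of all genes tested was -0.00114. The plot of each member by well shows CYP26A1 and CRABP2 beside GREB1L as the members with visible gaps between the coatings.

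**Figure D1:**
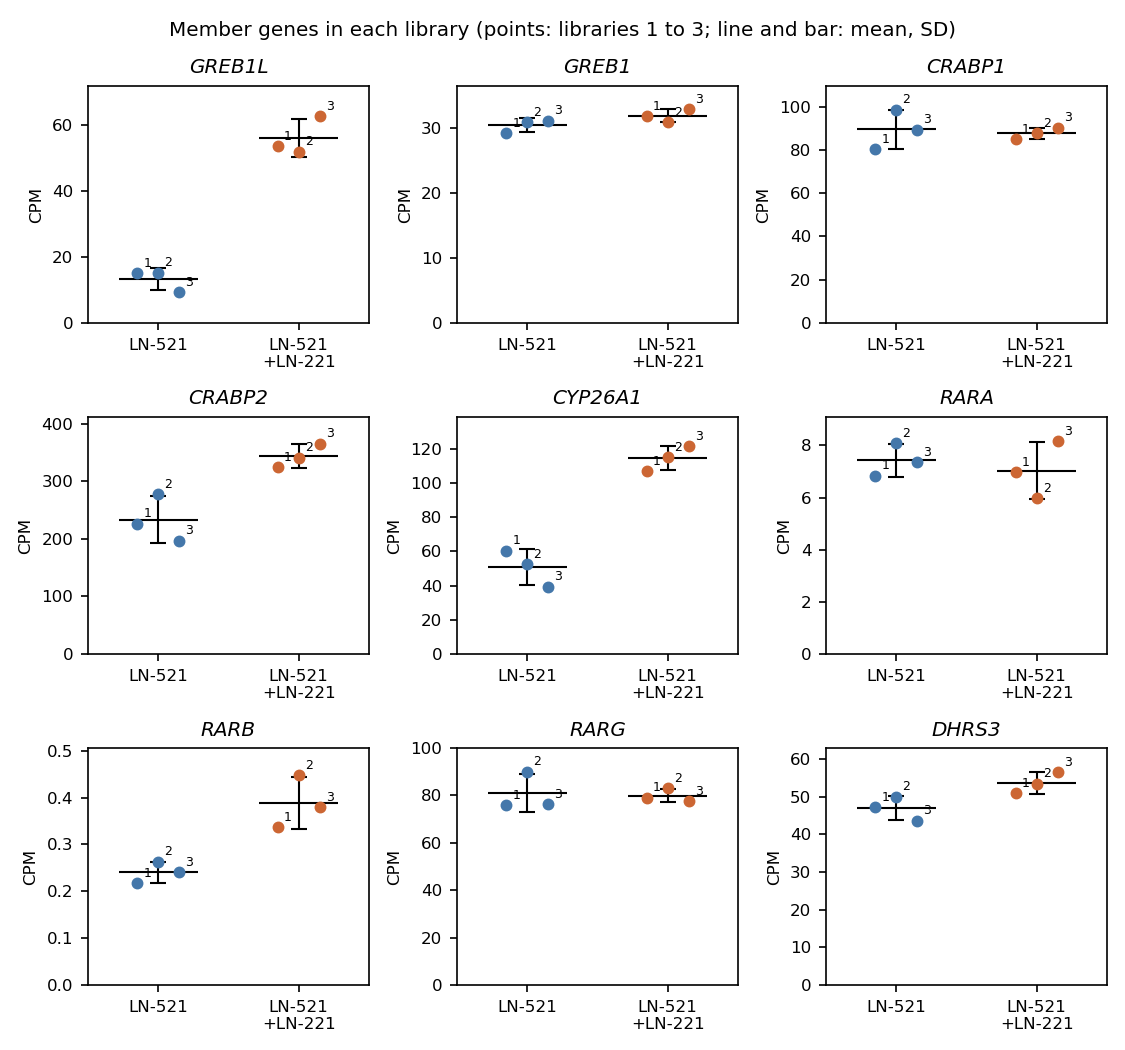
CPM (scaled counts, linear axis from 0) of the 9 members in each of 6 libraries. Points are wells with their replicate number, horizontal lines the means and bars the SD of 3 wells; GREB1L, CYP26A1, CRABP2, DHRS3 and RARB (at 10 counts or fewer) do not overlap between the coatings, while GREB1, CRABP1, RARA and RARG do.

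CYP26A1 (ENSG00000095596, chr10:93073475-93077890, plus strand), the enzyme that hydroxylates retinoic acid for removal and a direct target of RARs, was 60.5, 52.6 and 39.4 CPM in LN-521 wells 1 to 3. It was 107.1, 115.3 and 121.6 CPM in LN-521+LN-221 wells 1 to 3. Every well on the mixed coating was above every well on LN-521, and LN-521 well 3 was again the lowest. The mean rose from 50.8 CPM (SD 10.7, n = 3) to 114.7 CPM (SD 7.27, n = 3), which gave a log2 fold change of 1.18 ± 0.15 (SE, with edgeR adjusted p = 0.0102), or 2.26-fold. Without LN-521 replicate 2 the log2 fold change was 1.21 and the gene no longer passed (edgeR adjusted p = 0.137, range over the 6 fits that leave out a library 1.32e-05 to 0.137).

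CYP26C1 (ENSG00000187553, chr10:93060808-93069536, plus strand), a related hydroxylase gene, ends 3939 bases before CYP26A1 on the same strand. It was 2.66, 3.01 and 2.33 CPM on LN-521 and 6.74, 6.82 and 5.32 CPM on LN-521+LN-221. The groups were well apart at a level far below that of CYP26A1, and the log2 fold change was 1.23 ± 0.16 (SE, with edgeR adjusted p = 1.89e-04), or 2.35-fold. It passed in each of the 6 fits that left out a library. With limma on log2(TPM + 1) the log2 fold change was 0.59 and did not pass (limma adjusted p = 0.147). On log2(TPM + 0.1) it was 1.14 and did not pass either (limma adjusted p = 0.149). An annotated transcript on the same strand, ENSG00000285846, overlaps exons of both CYP26C1 and CYP26A1, so their counts could share its reads. The third enzyme gene, CYP26B1, had 5 to 18 counts per library and was not tested.

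The rest of this stretch of chromosome 10 was read after the values of CYP26A1 and CYP26C1 had been seen. A long non-coding RNA gene on the same strand, ENSG00000279607, ends 9 bases before CYP26A1 and had 7 to 29 counts per library. Its log2 fold change was 1.69 ± 0.35 (SE, with edgeR adjusted p = 0.0109). The mean level was 0.371 CPM with laminin-521 alone and 1.22 CPM with the mixed coating. The gene therefore passed the filter on low counts only through the coating where it was higher, and its call is weak. Reads from a longer CYP26A1 transcript cannot be told apart from reads of this gene. MYOF, which encodes the membrane repair protein myoferlin, lies 228539 bases after CYP26A1 on the other strand and was 12.5, 12.2 and 9.99 CPM on LN-521. On LN-521+LN-221 MYOF was 15.8, 18.4 and 19.2 CPM, which gave a log2 fold change of 0.62 ± 0.11 (SE, with edgeR adjusted p = 0.00293).

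CRABP2 (ENSG00000143320, chr1:156699606-156705816, minus strand), the carrier that hands retinoic acid to RARs, was 226, 277 and 197 CPM in LN-521 wells 1 to 3. It was 324, 341 and 366 CPM in LN-521+LN-221 wells 1 to 3. The groups did not overlap, with LN-521 well 3 lowest once more, but the log2 fold change of 0.56 ± 0.12 (SE), or 1.47-fold, did not pass over all genes (edgeR adjusted p = 0.0650). The call depended on the setting. CRABP2 passed without LN-521 replicate 2, at 0.70 (edgeR adjusted p = 1.12e-06), and without LN-521 replicate 3, at 0.45 (edgeR adjusted p = 0.0127), and over the 6 such fits the adjusted p-value ranged from 1.12e-06 to 0.257. It also passed in 5 of 8 other settings with all libraries, among them DESeq2 (log2 fold change 0.56, adjusted p = 0.0146).

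CRABP1 (ENSG00000166426, chr15:78340324-78348230, plus strand), the carrier linked to retinoic acid sequestration and breakdown, was 80.4, 98.6 and 89.4 CPM on LN-521. On LN-521+LN-221 it was 85.1, 87.7 and 90.3 CPM, inside the LN-521 range. Its log2 fold change was -0.03 ± 0.07 (SE, with edgeR adjusted p = 0.894), with a 95% interval from -0.17 to 0.11. The TPM ratio of CRABP2 to CRABP1 was 2.07, 2.06 and 1.61 in LN-521 wells and 2.79, 2.86 and 2.98 in LN-521+LN-221 wells. The ratios did not overlap. They were chosen after the values were seen and are given without a test. FABP5, a fatty acid binding protein that can carry retinoic acid to PPARD, had a log2 fold change of -0.12 ± 0.07 (SE, with edgeR adjusted p = 0.507) and had fractional counts in all 6 libraries.

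The receptors did not pass the test. RARG (ENSG00000172819, chr12:53210567-53232980, minus strand) was 76.1, 90.1 and 76.5 CPM on LN-521 and 79.1, 83.1 and 77.5 CPM on LN-521+LN-221. Its log2 fold change was -0.02 ± 0.07 (SE, with edgeR adjusted p = 0.938), with an interval from -0.15 to 0.12. RARA (ENSG00000131759, chr17:40309192-40357643, plus strand) was 6.84, 8.08 and 7.34 CPM and 6.98, 5.96 and 8.15 CPM on the same coatings. Its log2 fold change was -0.08 ± 0.13 (SE, with edgeR adjusted p = 0.849), with a wider interval from -0.34 to 0.19. Both ranges overlap between the coatings.

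RARB (ENSG00000077092, chr3:25174332-25597932, plus strand), the receptor gene that retinoic acid itself induces in many cells and whose DR5 is printed above, had 5, 7 and 6 counts on LN-521. It had 7, 10 and 9 counts on LN-521+LN-221, and its CPM did not overlap between the coatings while its TPM did. With these few counts it was not tested, and at this depth no modest difference could be detected. Its exons overlap those of TOP2B on the other strand, which had up to 10539 counts in a library, and whether strand was used when reads were counted is not given in the sources used here. Some of the RARB counts could therefore be TOP2B reads.

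Of the 7 nuclear receptor genes listed, 5 were tested and none passed with edgeR, DESeq2 or limma on log2(TPM + 1), and 1 (RXRB) had an unadjusted edgeR p-value under 0.05 (14.5% of all genes tested). All 5 log2 fold changes were below 0, with a median of -0.08. RXRB, which overlaps SLC39A7 on the other strand, was at -0.23 ± 0.10 (SE, with edgeR adjusted p = 0.279), PPARD at -0.21 and RXRA at -0.04. The signs of RARA and RARG turned with log2(TPM + 1), so no common direction can be read. RXRG had at most 3 counts.

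DHRS3 (ENSG00000162496, chr1:12567910-12617731, minus strand), which returns retinaldehyde to retinol, was 47.1, 50.001 and 43.6 CPM on LN-521. It was 50.9, 53.4 and 56.5 CPM on LN-521+LN-221. The groups did not overlap, but the gap between the nearest wells was under 1 CPM, and the log2 fold change of 0.19 ± 0.07 (SE) did not pass (edgeR adjusted p = 0.195). It passed in none of the 14 alternatives that tested it.

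None of the genes of retinoid supply and storage passed, and most had values below 0. Of 22 listed genes 21 matched and 16 were tested, of which none passed with edgeR, none with DESeq2 or limma on log2(TPM + 1), and 6 had an unadjusted edgeR p-value under 0.05 (14.5% of all genes tested). The log2 fold change was above 0 for 4 and below 0 for 12, with a median of -0.14, while with limma on log2(TPM + 1) 6 of 13 were above 0.

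The lowest fold changes of the supply list were those of RDH5, at -0.87 ± 0.35 (SE, with edgeR adjusted p = 0.258), and RDH12, at -0.63 ± 0.28 (SE, with edgeR adjusted p = 0.305), both retinol dehydrogenases best known from the eye and both under 2 CPM here. BCO2, a carotenoid cleaving enzyme with at most 25 counts, was highest at 0.96 ± 0.44 (SE, with edgeR adjusted p = 0.322). Without LN-521+LN-221 replicate 3 BCO2 was at 0.48 and RDH5 at -0.50. The retinaldehyde dehydrogenases that make retinoic acid were low. ALDH1A2 had 4 to 11 counts per library and was not tested, while ALDH1A1 was at -0.14 and ALDH1A3 at -0.23, neither past the threshold.

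The list of genes known to respond to retinoic acid held 40 genes, of which 16 were tested and 3 rose, CYP26A1, CYP26C1 and MEIS2, while none fell. Of all genes tested 1.4% rose and 2.53% passed in either direction. The median log2 fold change of the 16 was 0.10, with 9 above and 7 below 0. MEIS2 (ENSG00000134138), a homeodomain transcription factor, was 0.436, 0.414 and 0.401 CPM on LN-521 and 1.35, 1.30 and 1.098 CPM on LN-521+LN-221. The groups were apart in every well, and the log2 fold change was 1.57 ± 0.31 (SE, with edgeR adjusted p = 0.00939) at 10 to 29 counts per library. With 10, 11 and 10 counts on LN-521, MEIS2 passed the filter on low counts only through its LN-521+LN-221 wells, where it was higher. Its call is therefore weak support for the list. DESeq2 and limma on log2(TPM + 1) gave MEIS2 no adjusted p-value. It did not pass without LN-521 replicate 3, LN-521+LN-221 replicate 1 or LN-521+LN-221 replicate 2, with adjusted p-values of 0.0637, 0.0541 and 0.0660.

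None of the 11 HOX genes of this list reached the filter, and the highest count of any of them in a library was 9. TSHZ1 had the lowest log2 fold change of the response list, at -0.57 ± 0.39 (SE, with edgeR adjusted p = 0.547). RET, the receptor tyrosine kinase induced by retinoic acid in neural cells, was at 0.19 and did not pass the threshold (edgeR adjusted p = 0.439).

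Of 15 receptor coregulators listed, 14 were tested. Apart from GREB1L none passed with edgeR, DESeq2 or limma on log2(TPM + 1), and 4 of 13 had an unadjusted edgeR p-value under 0.05 (14.5% of all genes tested). TBL1XR1, a subunit of the NCOR corepressor complex, was at 0.17 ± 0.06 (SE, with edgeR adjusted p = 0.150) and KDM6B, a histone H3 lysine demethylase, at 0.15 ± 0.13 (SE, with edgeR adjusted p = 0.655). NRIP1, a corepressor that retinoic acid induces, was lowest at -0.24 ± 0.09 (SE, with edgeR adjusted p = 0.190), and HDAC3 was at -0.11 ± 0.06 (SE, with edgeR adjusted p = 0.439). TBL1XR1 passed without LN-521 replicate 1 (0.22, edgeR adjusted p = 0.00514, range over the 6 such fits 0.00514 to 0.429), and NRIP1 without LN-521 replicate 2 (-0.30, edgeR adjusted p = 0.0491, range 0.0491 to 0.528).

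Over the 5 retinoid lists together, without GREB1L, 48 genes were tested. Of these 3 rose and none fell, or 6.25% against 2.53% of all genes tested. MEIS2, among the 3, passed the filter on low counts only through the coating where it was higher. An unadjusted edgeR p-value under 0.05 was found for 16 of the 48 (33.3%) and for 14.5% of all genes tested. The groups did not overlap for 8 genes that were higher and 7 that were lower on LN-521+LN-221, against 10.2% and 9.68% of all genes tested. The list median of -0.04 lay close to the median of all genes.

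**Figure D2:**
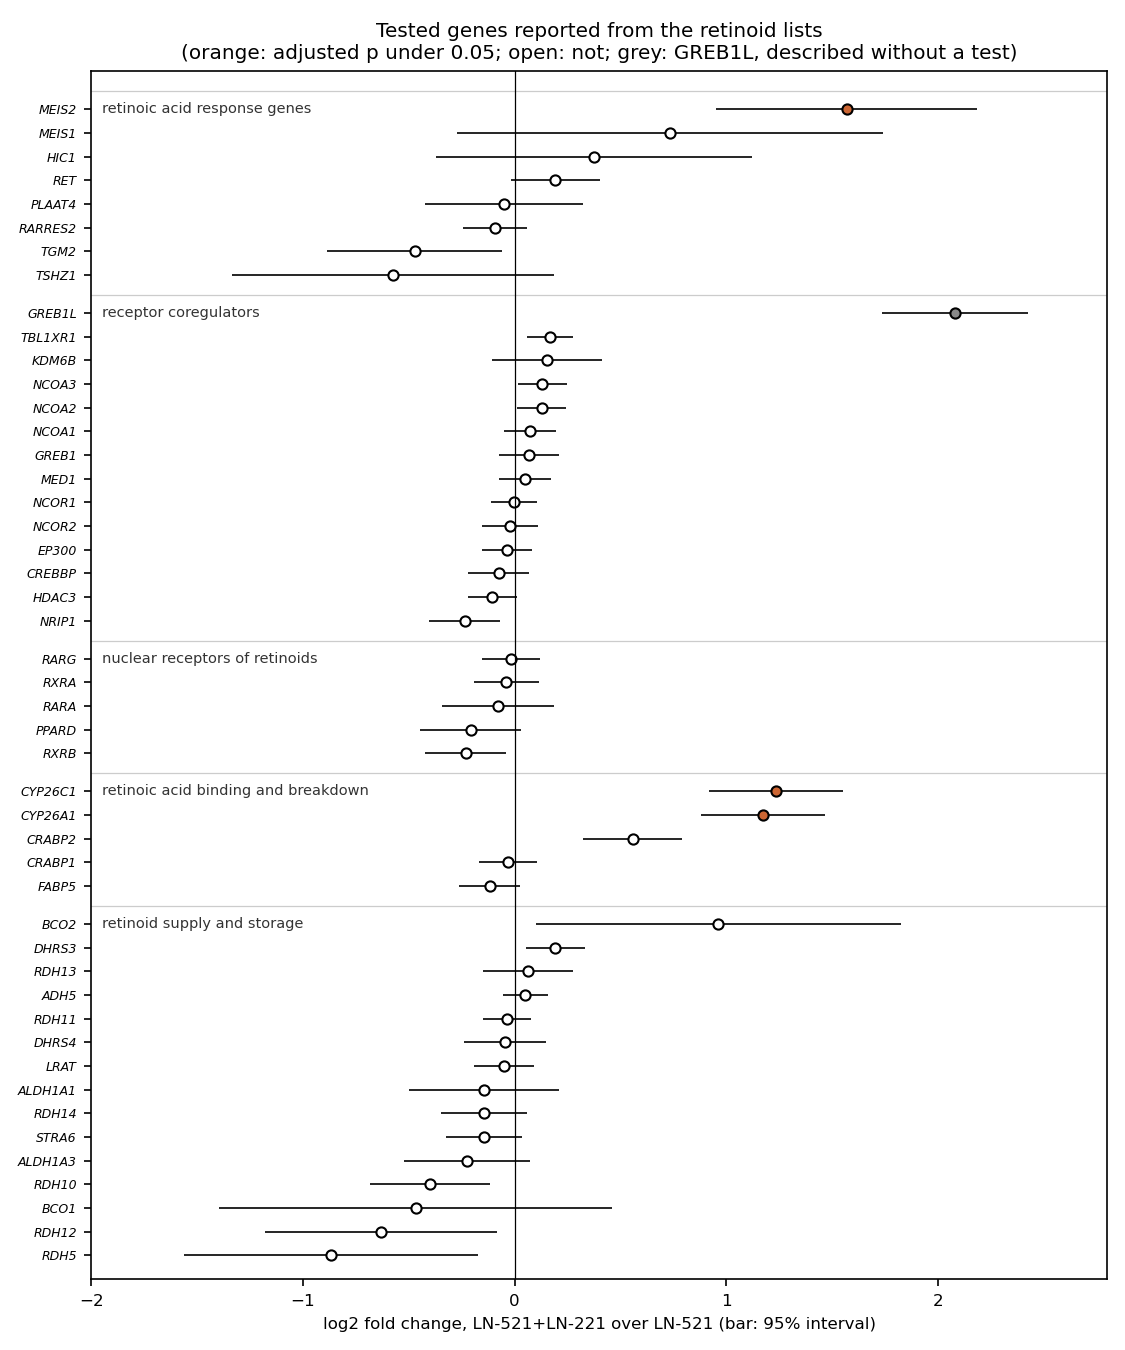
Log2 fold change (x axis, LN-521+LN-221 over LN-521) of the tested genes reported from the 5 retinoid lists, with bars for the 95% interval; a gene in several lists is drawn once. CYP26A1, CYP26C1 and MEIS2 (orange) passed the adjusted threshold, GREB1L (grey) is shown without a test, and the receptors and most supply genes lie near or below 0.

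GREB1 is an estrogen response gene, so estrogen receptors and their known target genes were read in the same way. Of 21 listed genes 15 were tested and 2 rose, CCND1 and MYB, where 1.4% of all genes tested rose and 2.53% passed in either direction, with a median log2 fold change of 0.04 over the list. CCND1, which encodes the G1 cyclin D1, was 76.4, 70.6 and 61.5 CPM on LN-521 and 103.5, 113.9 and 113.5 CPM on LN-521+LN-221, which gave a log2 fold change of 0.67 ± 0.07 (SE, with edgeR adjusted p = 3.68e-05). The transcription factor gene MYB was at 0.51 ± 0.07 (SE, with edgeR adjusted p = 5.03e-04) and did not pass with limma on log2(TPM + 1) (adjusted p = 0.118). ESR1, the main estrogen receptor gene, had 4 to 7 counts per library and was not tested, and ESR2 was at 0.03 ± 0.30 (SE, with edgeR adjusted p = 0.982).

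TFF3, PDZK1 and ESRRG were the remaining genes named by rank in the estrogen list. TFF3, a secreted mucosal peptide, was at -0.67 ± 0.51 (SE, with edgeR adjusted p = 0.601) and the orphan receptor ESRRG at -0.23 ± 0.14 (SE, with edgeR adjusted p = 0.492). PDZK1, a scaffold protein, was at 0.54 ± 0.44 (SE, with edgeR adjusted p = 0.632). None of these passed the threshold. TFF3 and PDZK1 moved widely with single libraries. TFF3 was at -1.71, -0.31 and -0.35 without LN-521+LN-221 replicates 1, 2 and 3, and PDZK1 was at 1.096 without LN-521 replicate 1 and 0.11 without LN-521 replicate 3.

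Levels of different members were compared only as TPM, which corrects for transcript length. CRABP2 was highest, at 227 ± 34.3 TPM (SD) on LN-521 and 345 TPM with an SD of 6.499 on LN-521+LN-221 (n = 3 wells each), followed by CRABP1 at 118 ± 3.45 and 120 ± 1.92 TPM. CYP26A1 came next with 30.6 ± 10.1 TPM on LN-521 and 70.8 ± 1.21 TPM on LN-521+LN-221. On LN-521 it overlapped RARG (30.6 ± 2.64 TPM), and on LN-521+LN-221 all its wells were above RARG (30.6 ± 1.60 TPM).

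DHRS3 followed at 25.3 ± 2.22 and 29.6 ± 0.358 TPM and overlapped RARG on LN-521+LN-221. GREB1 was at 6.97 ± 0.737 and 7.02 ± 1.24 TPM. GREB1L was at 2.94 ± 0.289 TPM on LN-521, where its wells overlapped those of RARA (2.67 ± 0.154 TPM), and at 10.95 ± 1.41 TPM on LN-521+LN-221, above all wells of GREB1 and RARA. RARB was lowest, between 0.11 and 0.16 TPM in all 6 wells. The spread of CYP26A1 between LN-521 wells was wide on this scale, at 41.9, 27.5 and 22.4 TPM.

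**Figure D3:**
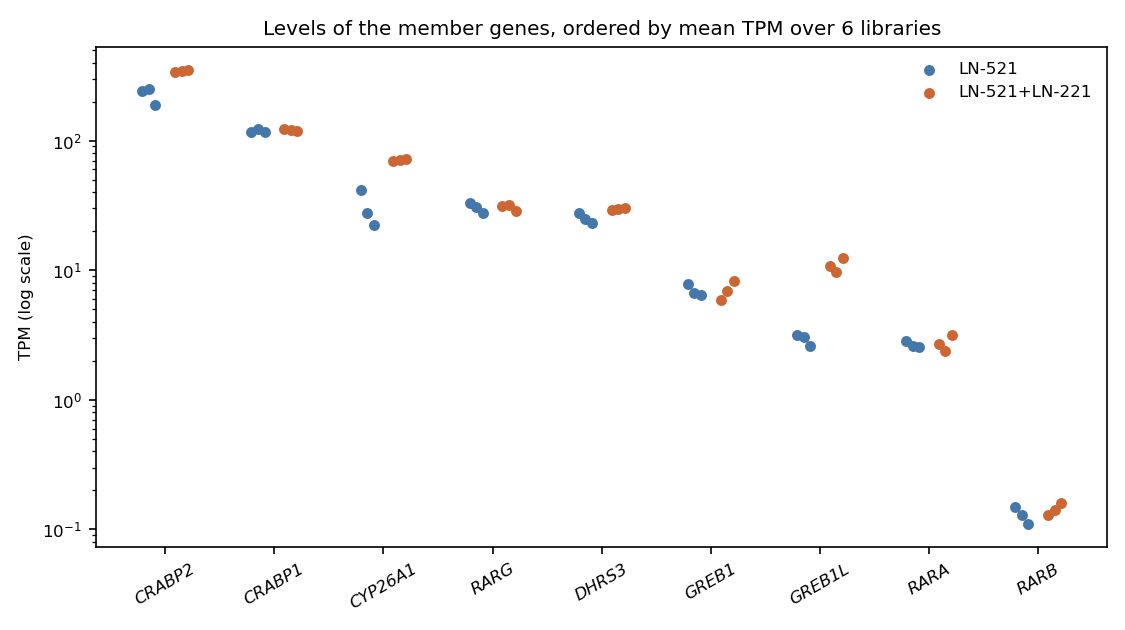
TPM (log axis) of the 9 members, ordered by their mean over 6 libraries; each point is a well. CRABP2 and CRABP1 are the highest on both coatings, GREB1L moves from the level of RARA on LN-521 to above GREB1 on LN-521+LN-221, and RARB stays at or below 0.16 TPM.

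Genes whose log2 CPM over the 6 libraries was most like that of GREB1L were ranked by Pearson's r among 16255 tested genes with a symbol. The points share 2 coatings, so r is given as a description that mostly follows the difference between them. The 5 highest were FLRT3 (r = 0.998), SAMHD1 (0.997), KCMF1 (0.997), PKDCC (0.996) and SHISA2 (0.996). Among these FLRT3 had a log2 fold change of 1.22 ± 0.11 (SE, with edgeR adjusted p = 4.38e-06), PKDCC of 1.84 ± 0.27 (SE, with edgeR adjusted p = 0.0614) and SHISA2 of 0.87 ± 0.09 (SE, with edgeR adjusted p = 1.44e-05). FLRT3 encodes a membrane adhesion protein and PKDCC a secreted protein kinase.

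The 5 lowest were MT1E (r = -0.999), MAML1 (-0.998), CHCHD4 (-0.997), FN1 (-0.997) and INPP5D (-0.996). FN1, which encodes the matrix protein fibronectin, averaged 401 ± 18.2 CPM (SD, n = 3) in LN-521 wells and 293 ± 3.09 CPM in wells with LN-521+LN-221, and fell by 0.45 on the log2 scale (edgeR adjusted p = 5.08e-05). Of the members, CYP26A1 ranked 23 (r = 0.991), CRABP2 232 (r = 0.948), DHRS3 507 (r = 0.897) and GREB1 2686 (r = 0.610). CRABP1 (r = -0.117), RARA (r = -0.201) and RARG (r = -0.00127) lay in the middle of the ranking. CYP26C1 (r = 0.961) and MEIS2 (r = 0.964) ranked 177 and 165.

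The fold changes of the members were last compared across the alternative settings. GREB1L ranged from 1.88 to 2.21 when 1 library was left out and from 1.60 to 2.09 with other normalizations, filters, units and tools. CYP26A1 ranged from 1.02 to 1.32 and from 1.17 to 1.26, and CRABP2 from 0.45 to 0.70 and from 0.55 to 0.62. For GREB1L, CYP26A1, CRABP2, DHRS3 and GREB1 the sign was positive in all 14 settings, while CRABP1, RARA and RARG took both signs.

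**Figure D4:**
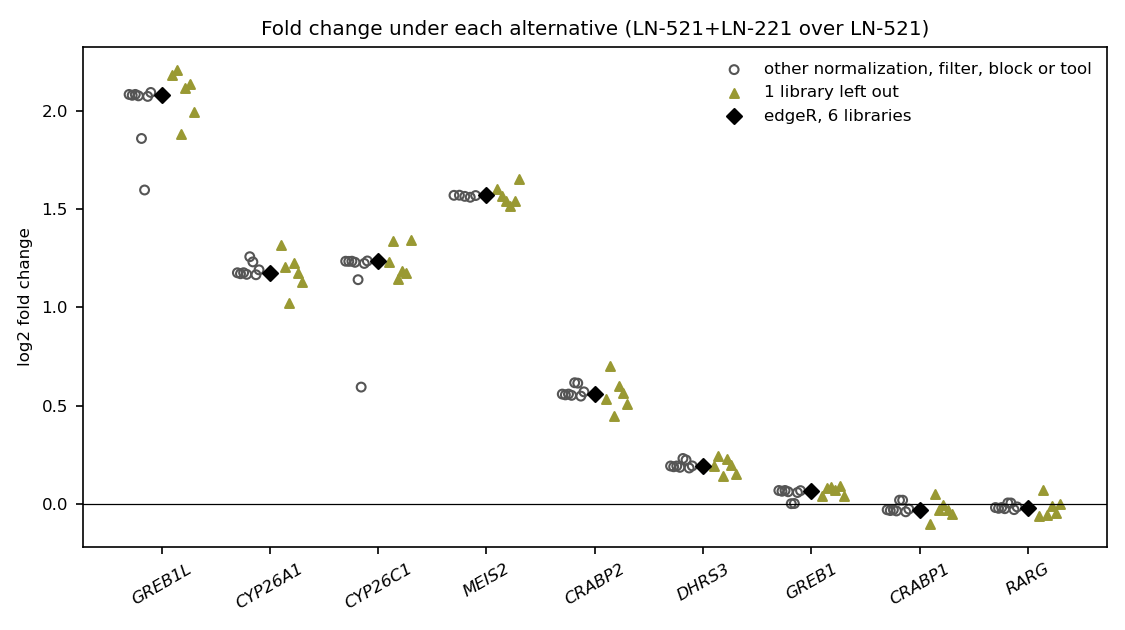
Log2 fold change (y axis) of 9 genes under each setting: diamonds mark edgeR on 6 libraries, circles other normalizations, filters, blocks or tools, and triangles fits with 1 library left out. GREB1L, CYP26A1, CYP26C1, MEIS2, CRABP2 and DHRS3 stay above 0 throughout, and the lowest circles of GREB1L and CYP26C1 are those of limma on log2(TPM + 1).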

How the data were processed

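Per the labels, total RNA libraries (TruSeq stranded kit, paired reads) came from 3 wells per coating. The submitters' processing notes name cutadapt, STAR 2.5.2b and RSEM 1.2.31 with hg38, and the gene annotation and strand setting are not given in the sources used here. The authors deposited estimated counts per Ensembl gene (6.08% to 6.67% of values per library not whole) and TPM values. The deposited sample sheet gives the sequencing batch.

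Counts were rounded, filtered with filterByExpr (minimum count 10), scaled with edgeR's TMM factors and tested with edgeR 4.0.16 (R 4.3.3, robust quasi-likelihood fit, no replicate block). Adjusted p-values are Benjamini-Hochberg over 17608 genes, with a threshold of 0.05. The SE is the absolute log2 fold change divided by the square root of F. Alternatives were RLE size factors, library size alone, no filter, 1 CPM in 3 libraries, the replicate block, DESeq2 1.42.0, limma 3.58.1 (trend, log2(TPM + 1) or with a pseudocount of 0.1, keeping genes that reached 1 TPM in 3 libraries), and leaving out each library. The fit was tested on simulated data.

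Of the deposited gene IDs 68.0% had a symbol, and GENCODE 29 (GRCh38) held 93.8%, which gave gene positions and overlaps. Promoter sequences are RefSeq's. GREB1 had no promoter entry. Members and gene lists were chosen with earlier results of these data known. Named genes are the members, list genes past the threshold, the 2 highest and 2 lowest tested genes by fold change in each list, the 5 genes most and least like GREB1L, and the neighbours of GREB1L. Any others (among them ENSG00000279607, MYOF, RET, ALDH1A1, ALDH1A2, ALDH1A3, CYP26B1, RXRG, ESR1 and ESR2) were chosen after their values were seen. Some list genes count in the totals but are not reported here by name.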

Additional observations from a re-analysis of the deposited data

How the results depend on the processing

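The count of genes past the threshold, 446 of all genes tested, was 61 with limma on log2(TPM + 0.1), 62 with log2(TPM + 1), 718 without a filter and 646 with the replicate block, and ranged from 194 (without LN-521+LN-221 replicate 3) to 1179 (without LN-521 replicate 1) when a library was left out, with 201 without LN-521 replicate 3, 290 without LN-521+LN-221 replicate 1 and 198 without its replicate 2. Of the 7 tested members other than GREB1L, 1 passed with all libraries. The count was 2 (CYP26A1 and CRABP2) with DESeq2, library size alone, log2(TPM + 1), log2(TPM + 0.1) and no filter, 0 with the replicate block, and 1 to 2 when a library was left out (2 without LN-521 replicate 3, and CRABP2 in place of CYP26A1 without LN-521 replicate 2). Of the tested retinoid list genes 3 passed, 5 without a filter and 2 (without LN-521+LN-221 replicate 1 or 2) to 6 (without LN-521 replicate 1) when a library was left out. For these counts the cause was not tested.

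The replicate numbers recur in both coatings and number wells. The mean correlation of deviations from the coating means was 0.0113 for wells of equal number and -0.0057 for the others, and not every well correlated best with its own number, so the samples share only a number. With the replicate block CYP26A1 (1.19, adjusted p = 0.172) did not pass, while CYP26C1 and MEIS2 passed.

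Sign changes touched genes near 0. With log2(TPM + 1) and log2(TPM + 0.1) CRABP1 was 0.0196 and 0.0197, RARA 0.0240 and 0.0298, and RARG 0.00537 and 0.00560. When a library was left out CRABP1 ranged from -0.101 to 0.0487, RARA from -0.203 to 0.0299, RARG from -0.0611 to 0.0690 and RXRA from -0.0919 to 0.0356. The cause was not tested. GREB1L was 1.60 with log2(TPM + 1), a scale that understates changes of low genes. Among the named genes with all libraries, 186 values stayed on their side of the threshold with the same sign, 5 became weaker and 7 stronger. With a library left out these numbers were 154, 4 and 5. MEIS2 and RARB, at 29 counts or fewer per library, are limited by depth.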
